A study of Mus musculus with 4 samples.

Results

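The genes described here were 10 exchangeable subunits of the BAF chromatin remodelling complex: Actl6a, Dpf2, Phf10, Ss18 and Smarcd1 as the 5 progenitor members, and Actl6b, Dpf1, Dpf3, Ss18l1 and Smarcd3 as the 5 neuronal members. Smarcd1 and Smarcd3 (BAF60a and BAF60c) fill the same position, and Smarcd3 is best known from heart and skeletal muscle, so its place on the neuronal side is that of the list used here. They were found by symbol among the 35857 genes of each deposited table, and all 10 reached the mean of 1 TPM (a gene's share of the transcripts of a library, corrected for transcript length) that was required for testing. The set was drawn up with the difference between Qk_KO and control cells already known, Actl6b having been among the largest increases. The differences of these 10 genes are therefore given as a description. Their place in the fit across all genes is stated once, and nothing rests on it.

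The complex uses ATP to move nucleosomes, and several positions in it can be filled by alternative, closely related proteins. When neural progenitors stop dividing and become neurons, progenitor forms of the complex are known to give way to neuronal forms: the actin-related protein Actl6a (BAF53a) is replaced by Actl6b (BAF53b), the PHD finger proteins Phf10 and Dpf2 by Dpf1 and Dpf3, and Ss18 by its relative Ss18l1 (CREST). The transcriptional repressor REST and the microRNAs miR-9 and miR-124 are known to take part in that exchange, REST by holding miR-9 and miR-124 down in progenitors and the microRNAs by acting on the Actl6a messenger RNA.

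Cells labelled Qk_KO, with the genotype Qk-/-, were set against control cells of the genotype wild type. Qk encodes the RNA-binding protein Quaking. There were 2 libraries per group, all from strain C57BL/6. All 4 came from neural stem cells taken from embryonic cerebral cortex and collected 24 hr after glial differentiation was induced, and the submitters call them glial progenitors. How Qk was deleted is not given in the labels, nor whether replicates were separate cultures, so p-values measure only the spread between these libraries, which may be technical.

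Qk stood at 36.1 and 43.7 TPM in the Qk_KO libraries, against 208 and 215 TPM in the control libraries (log2 fold change -2.38, SE 0.12, adjusted p = 0.00708 in limma). All 4 libraries thus lay on the side their labels give. Read depth cannot be recovered from TPM and is unknown here. Markers of neural stem cells and radial glia were present in all libraries, with all 11 above 1 TPM on average. Their summed level was 6247 to 6453 TPM in Qk_KO and 6222 to 6291 TPM in control cells. Most of each sum came from Vim and Fabp7, named after their values were seen. Vim averaged 2883 TPM in Qk_KO and 2358 TPM in control cells, and Fabp7 2749 and 2983 TPM. The median log2 fold change of the 13260 genes tested was 0.04. As the RNA was taken from whole cultures, a change in the number of cells of a type and a change in RNA per cell cannot be told apart.

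Of the exchangeable positions, the one filled by Actl6a and Actl6b differed most between the groups in its transcripts. Only RNA was measured, so protein levels and the make-up of the complex are unknown here. Actl6b, the neuronal actin-related subunit, was 4.91 times as abundant in Qk_KO cells, while Actl6a, the progenitor subunit, was not lower but slightly higher. The remaining neuronal members differed little or modestly, and Phf10 was the only member whose 2 Qk_KO values lay below both control values.

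**Figure D1:**
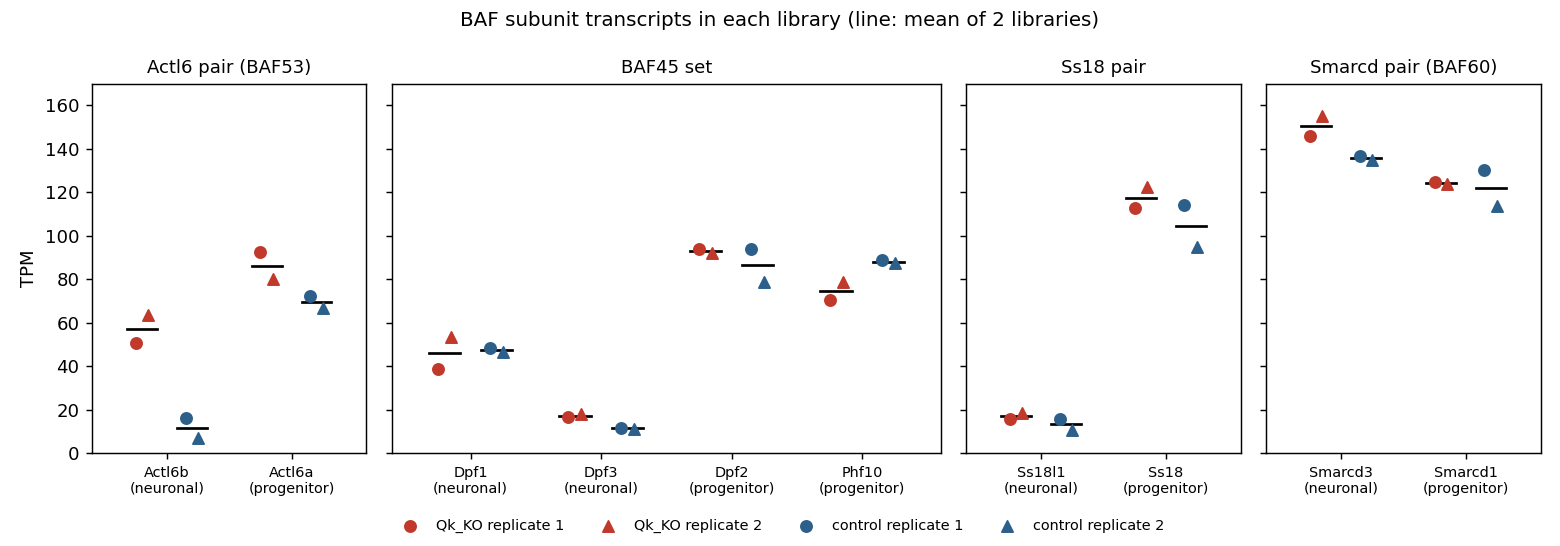
TPM of the 10 BAF subunits in each library, grouped by the position they fill, with circles for replicate 1, triangles for replicate 2 and a line at the mean of each group. Actl6b stands at 50.5 and 63.6 TPM in Qk_KO libraries and at 16.1 and 7.13 TPM in control libraries, and no other member is separated by as much.

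Actl6b (Entrez gene 83766) lies on chromosome 5, from 137553517 to 137569582 on the plus strand of GRCm38. It stood at 50.5 and 63.6 TPM in Qk_KO replicates 1 and 2, against 16.1 and 7.13 TPM in control replicates 1 and 2. Both Qk_KO libraries lay above both control libraries, and control replicate 2 was the lowest of the 4. The group means were 57.1 ± 9.26 TPM in Qk_KO and 11.6 ± 6.37 TPM in control cells (SD, n = 2 each), a ratio of 4.91. The log2 fold change was 2.29 on the log2(TPM + 1) scale, which understates differences of low genes. It was the 25th highest of the 13260 genes tested, and 0.422% of the genes tested had a larger one in either direction. Without control replicate 2, the library with the lower value, the log2 fold change was 1.75, and without control replicate 1 it was 2.83.

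Actl6a (Entrez gene 56456) lies on chromosome 3, from 32706298 to 32726973 on the plus strand. Its protein is also a subunit of the INO80 and TIP60 complexes. Actl6a stood at 92.6 and 79.98 TPM in the Qk_KO libraries, against 72.3 and 66.6 TPM in the control libraries. The groups did not overlap, and the ratio of their means was 1.24 (log2 fold change 0.31). The higher level of Actl6b was thus not accompanied by a lower level of Actl6a.

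Added together, Actl6a and Actl6b stood at 143 and 144 TPM in the Qk_KO libraries, against 88.5 and 73.7 TPM in the control libraries. The neuronal paralog made up 35.3% and 44.3% of that sum in Qk_KO replicates 1 and 2, and 18.2% and 9.68% in control replicates 1 and 2. Means of the share were 39.8 ± 6.37% in Qk_KO and 14.0 ± 6.06% in control cells (SD, n = 2 each), a difference of 25.8 percentage points. Actl6a remained the more abundant paralog in every library, including both Qk_KO libraries.

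**Figure D2:**
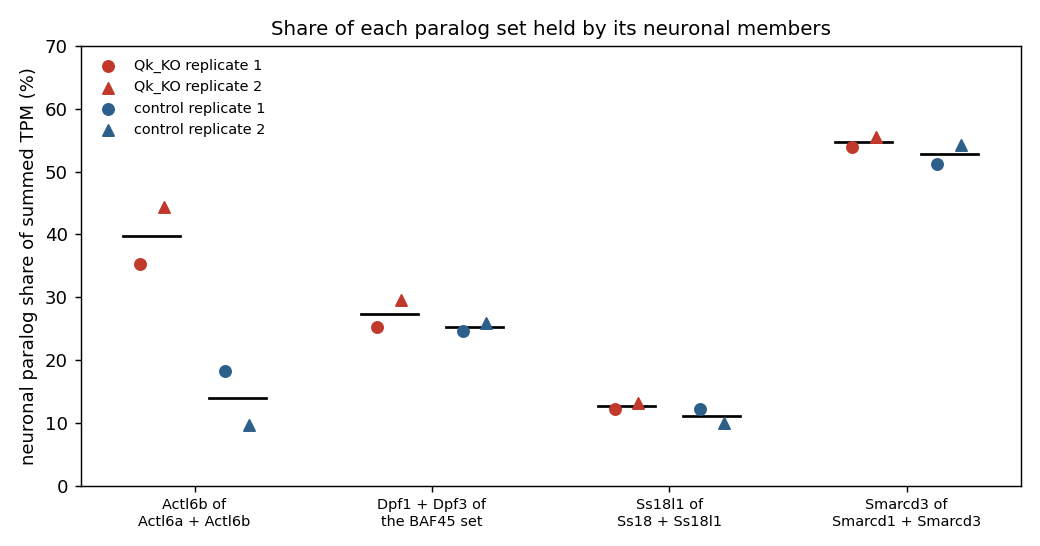
Share of the summed TPM of each paralog set that its neuronal members hold, in percent, per library, with a line at the mean of each group. The Actl6b share is 35.3% and 44.3% in Qk_KO and 18.2% and 9.68% in control libraries, while the other 3 sets differ by 1.66 to 2.09 percentage points between group means.

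The promoters of both Actl6 genes are shown because this pair differed most and because REST is a known regulator of the exchange. They cover 250 bases before to 50 bases after a RefSeq start of each gene, on its coding strand. The sequences come from RefSeq on GRCm38.p6, plus strand, at chr5:137553296-137553595 for Actl6b and chr3:32708296-32708595 for Actl6a. Capitals mark the 2 arms of RE1, the element bound by REST (AGCACC for the left arm, GGACAG for the right), and the E-box CAGCTG of neurogenic bHLH factors, each searched on both strands.
Actl6b promoter: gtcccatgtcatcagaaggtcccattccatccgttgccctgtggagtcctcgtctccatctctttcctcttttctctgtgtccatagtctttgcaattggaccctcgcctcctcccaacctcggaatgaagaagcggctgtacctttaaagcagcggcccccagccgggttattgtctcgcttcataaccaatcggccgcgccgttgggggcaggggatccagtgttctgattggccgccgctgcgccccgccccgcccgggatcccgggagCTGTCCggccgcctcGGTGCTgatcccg
Actl6a promoter: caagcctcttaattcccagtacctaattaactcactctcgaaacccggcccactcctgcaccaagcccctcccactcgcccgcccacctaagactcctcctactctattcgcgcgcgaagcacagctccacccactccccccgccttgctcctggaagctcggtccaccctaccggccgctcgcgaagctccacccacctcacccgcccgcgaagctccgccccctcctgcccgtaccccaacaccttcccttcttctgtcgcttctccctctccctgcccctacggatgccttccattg

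The Actl6b window held both RE1 arms on the minus strand in the order of the element, 9 bases apart, at bases 23 to 43 from the start. Of 27025 promoters of the same length, 59 (0.218%) held both arms in that order on one strand within 20 bases of each other, and 12 (0.0444%) held them at the canonical spacing of 2 bases. Single arms were common, with 15.9% of promoters holding AGCACC, 22.02% GGACAG and 16.2% the E-box. Among the windows of the 9 members with a promoter entry, that of Actl6b was the only one with the pair. The Actl6a window held none of the 3 motifs, those of Smarcd1, Smarcd3 and Phf10 held the E-box, and single arms were found in Smarcd1 (AGCACC) and Dpf2 (GGACAG). Only the window at the lowest coordinate was searched for each gene, so motifs at other starts would be missed. The Actl6a window began at 32708296, inside the gene, whose GENCODE position starts at 32706298. The window of Smarcd3, on the minus strand, ended at 24602252, while that gene reaches 24624411. Binding was not measured, so these matches describe letters only.

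The microRNA side of the exchange is shown by the mature sequences of miR-9, which are encoded at 3 loci with the same mature sequences, Mir9-1 on chromosome 3, Mir9-2 on chromosome 13 and Mir9-3 on chromosome 7 (RefSeq, GRCm38.p6). Capitals mark the seed, bases 2 to 8. The third sequence is a stretch of the Actl6a 3' UTR from GENCODE M21 (GRCm38) with the bases that pair with the miR-9-3p seed in capitals.
mmu-miR-9-5p: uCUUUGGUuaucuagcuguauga
mmu-miR-9-3p: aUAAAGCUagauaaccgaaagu
Actl6a 3' UTR site: tcaacgtctgtAGCTTTAgtacactcagg

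This match begins at base 38 of the 371-base Actl6a 3' UTR, and it was the only match to either miR-9 seed among the 3' UTRs of the 10 members. Of the 12274 genes tested with a 3' UTR, 11.7% held a match to the miR-9-3p seed and 12.6% one to the miR-9-5p seed. Mature microRNAs were not measured in these poly(A)-selected libraries, and the hairpin genes Mir9-1, Mir9-2 and Mir9-3 were listed at 0 TPM in all 4. The Mir9-3 host transcript Mir9-3hg stood at 151 and 99.6 TPM in Qk_KO, against 73.4 and 55.9 TPM in control libraries. Actl6a and Mir9-3hg were thus both higher in both Qk_KO libraries than in either control library. C130071C03Rik, a further transcript in the list of regulators, was named after its values were seen. It stood at 2.33 and 4.15 TPM in Qk_KO, against 2.75 and 3.64 TPM in control libraries, and overlapped between the groups.

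The Quaking core motif in RNA was searched in the same 3' UTRs as ACTAAC and ACTAAT. Dpf3 was the only member with a match, at base 1945 of its 1990-base 3' UTR. Its surrounding sequence is given with the motif in capitals.
Dpf3 3' UTR site: tatcttcagagACTAACtacttgtttgg

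Matches to ACTAAC were present in 18.1% and to ACTAAT in 21.1% of the 12274 genes. The 196-base 3' UTR of Actl6b held neither, and introns were not searched. One isoform per gene was read, the one with the longest coding sequence.

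The BAF45 position is filled by PHD finger proteins that read histone tails. Among its neuronal members Dpf3 (BAF45c), on chromosome 12 from 83213745 to 83487716, stood at 16.7 and 17.8 TPM in Qk_KO libraries, against 11.4 and 11.3 TPM in control libraries. The groups did not overlap and replicates were close, with means of 17.2 ± 0.807 TPM in Qk_KO and 11.3 ± 0.0567 TPM in control cells (SD, n = 2 each) and a log2 fold change of 0.57. Dpf1 (BAF45b), on chromosome 7 from 29303951 to 29318243, stood at 38.6 and 53.5 TPM in Qk_KO libraries, against 48.4 and 46.7 TPM in control libraries. The control values of Dpf1 lay between the 2 Qk_KO values, and its log2 fold change of -0.06 was 0.17 without Qk_KO replicate 1.

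On the progenitor side of the same position, Phf10 (BAF45a), which is also found in the related PBAF complex, stood at 70.3 and 78.6 TPM in Qk_KO libraries, against 88.7 and 87.3 TPM in control libraries. Both Qk_KO values were below both control values, with a ratio of means of 0.846 (log2 fold change -0.24). Phf10 lies on chromosome 17 (14945009 to 14961273, minus strand), the chromosome of Qk (10202601 to 10319854, minus strand). Dpf2 (BAF45d), a broadly expressed member, stood at 93.8 and 91.8 TPM in Qk_KO libraries, against 93.8 and 78.9 TPM in control libraries. The Dpf2 groups overlapped. Together, Dpf1 and Dpf3 made up 25.2% and 29.5% of the summed BAF45 level in Qk_KO libraries, against 24.7% and 25.9% in control libraries. The groups thus overlapped, and transcripts of the progenitor members made up the larger part in all 4. The BAF45 sum was 219 and 242 TPM in Qk_KO libraries, against 242 and 224 TPM in control libraries.

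Ss18l1 (CREST), a coactivator that in neurons takes the place of Ss18 and is known for calcium-dependent transcription and dendrite growth, stood at 15.8 and 18.6 TPM in Qk_KO libraries, against 15.8 and 10.5 TPM in control libraries. Qk_KO replicate 1 and control replicate 1 had nearly the same value, and the groups overlapped (log2 fold change 0.38). Ss18 stood at 113 and 122 TPM in Qk_KO libraries, against 114 and 94.8 TPM in control libraries, and overlapped too. The Ss18l1 share of the pair was 12.3% and 13.2% in Qk_KO libraries, against 12.2% and 10.0% in control libraries. Ss18 was the more abundant transcript of the pair in every library.

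Smarcd3 was the most abundant of the 10 members in both groups. It stood at 146 and 155 TPM in Qk_KO libraries, against 137 and 135 TPM in control libraries, without overlap and with a ratio of means of 1.11. Smarcd1 stood at 125 and 124 TPM in Qk_KO libraries, against 130.4 and 114 TPM in control libraries, and its control values enclosed both Qk_KO values. Its log2 fold change of 0.03 turned to -0.00306 under median-ratio scaling and to -0.07 without control replicate 2. The Smarcd3 share of the pair was 53.9% and 55.5% in Qk_KO libraries, against 51.2% and 54.3% in control libraries. Neither paralog of the pair was thus more than slightly ahead. Smarcd2, listed with the other BAF subunits and named after its values were seen, was not part of that share. It averaged 20.5 TPM in Qk_KO and 19.1 TPM in control cells. Of the 9 marker genes of heart and skeletal muscle, the tissues in which Smarcd3 is best known, 1 passed 1 TPM on average, and their summed level was 2.67 to 3.04 TPM in Qk_KO and 3.70 to 5.51 TPM in control cells.

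In order of level, Smarcd3, Smarcd1 and Ss18 held the first 3 places in both groups. The next 3 in Qk_KO cells were Dpf2, Actl6a and Phf10 at means of 92.8, 86.3 and 74.5 TPM, and in control cells Phf10, Dpf2 and Actl6a at 88.0, 86.4 and 69.4 TPM. Dpf2 and Actl6a overlapped in Qk_KO cells, as did Phf10 and Dpf2 in control cells. Actl6b was in place 7 in Qk_KO cells, where its values overlapped those of Dpf1, and in place 9 in control cells, where they overlapped those of Ss18l1 and Dpf3. Dpf3 and Ss18l1 overlapped in Qk_KO cells, and so did Smarcd1 and Ss18 in control cells. Within each Qk_KO library Actl6b stood above Dpf1, and within each control library it stood below Dpf1.

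Summed over the 5 neuronal members, the level was 267 and 308 TPM in Qk_KO libraries, against 229 and 211 TPM in control libraries. Without Actl6b it was 217 and 245 TPM in Qk_KO libraries, against 212 and 203 TPM in control libraries. The difference between group means was 68.4 TPM with Actl6b and 23.0 TPM without it. The 5 progenitor members summed to 494 and 497 TPM in Qk_KO libraries, against 499 and 441 TPM in control libraries. Neuronal members made up 35.1% and 38.3% of all 10 in Qk_KO libraries, against 31.4% and 32.3% in control libraries. With both Actl6 genes left out, those shares were 35.1% and 37.0% in Qk_KO, against 33.2% and 35.2% in control libraries, and the groups overlapped.

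In the fit across all genes, Actl6b alone of the 10 members (1 of 10) was below the 0.05 threshold of limma after Benjamini-Hochberg correction, where 3.24% of all genes tested were (1.83% higher and 1.42% lower in Qk_KO). The groups did not overlap for 5 of the 10 members, 4 higher in Qk_KO and 1 lower, where the share over all genes tested was 61.1% (33.6% higher and 27.5% lower). Since the members were chosen with this comparison known, nothing is read from these counts. Actl6b no longer passed when any 1 of the 4 libraries was left out, without limma's mean-variance trend or with no filter on low genes.

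The genes whose pattern over the 4 libraries was nearest to that of Actl6b, by Euclidean distance between log2(TPM + 1) values centred on each gene's mean, were Sez6l2, Ina and Xkr7. Their distances were 0.276, 0.315 and 0.332 on the log2 scale over 4 libraries. Sez6l2, a membrane protein of neurons, stood at 26.4 and 43.7 TPM in Qk_KO libraries, against 9.03 and 4.06 TPM in control libraries. Ina, the gene of a neuronal intermediate filament, stood at 82.4 and 99.7 TPM in Qk_KO libraries, against 30.3 and 15.7 TPM in control libraries. Xkr7 stood at 13.1 and 17.9 TPM in Qk_KO libraries, against 2.96 and 0.81 TPM in control libraries. Control replicate 2 was the lowest library and Qk_KO replicate 2 the highest in all of them, as in Actl6b, which follows from how they were chosen.

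**Figure D3:**
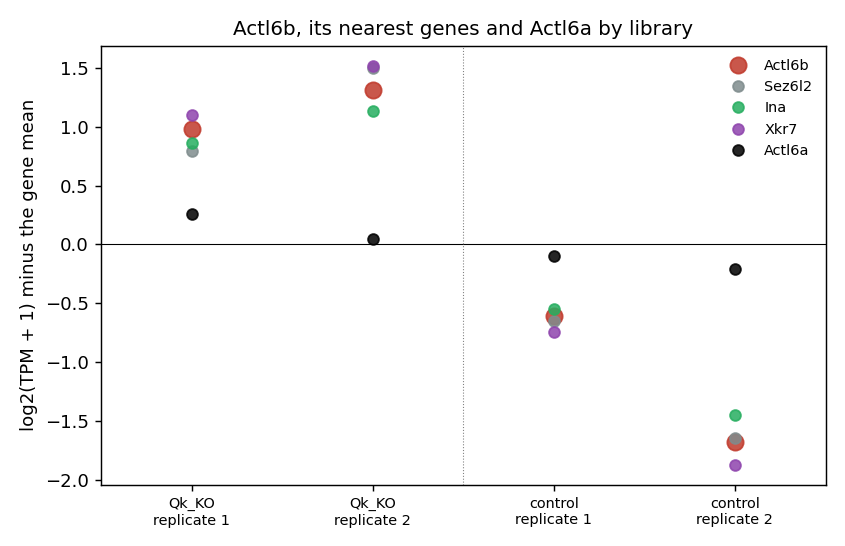
Level of Actl6b, of its 3 nearest genes and of Actl6a in each library, as log2(TPM + 1) minus the mean of the gene over the 4 libraries. Actl6b runs from 1.31 in Qk_KO replicate 2 to -1.68 in control replicate 2, with Sez6l2, Ina and Xkr7 close to it, while Actl6a stays near 0.

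Some neuron markers also stood higher in the Qk_KO libraries. Of the 21 genes in that list, 17 were tested, 3 rose (Ina, Celf4 and Snap25), 0 fell and 14 did not pass, by limma with Benjamini-Hochberg adjustment, where 1.83% of all genes tested were called higher and 1.42% lower. None was at 0 in every library. Both Qk_KO values lay above both control values for 8 of the 17 (33.6% of all genes tested), and the groups overlapped for the other 9. Slc17a6, Slc17a7, Gad2 and Slc32a1 were below the filter. The summed level of the list was 1328 and 1463 TPM in Qk_KO libraries, against 984 and 735 TPM in control libraries. Control replicate 2, the library with the least Actl6b, also had the lowest sum. Tubb3, the neuronal tubulin, was named after its values were seen and was not called. It stood at 512 and 383 TPM in Qk_KO libraries, against 275 and 126 TPM in control libraries. Gap43, of the same list, stood at 305 and 421 TPM in Qk_KO and 267 and 258 TPM in control libraries. Both genes gave a large part of the sums. The synaptic gene Snap25 stood at 31.6 and 37.5 TPM in Qk_KO libraries, against 18.2 and 12.8 TPM in control libraries. Stmn2 and Nefl, also named after their values were seen, had negative log2 fold changes of -0.37 and -0.41 and overlapped between the groups. The part of neuronal cells in the Actl6b difference was not tested.

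Of 16 cycling-cell markers, 3 rose (Ccnb1, Ccnb2 and Bub1b), 0 fell and 13 were not called, where 1.83% of all genes tested were called higher and 1.42% lower. For 15 of the 16 both Qk_KO values lay above both control values (33.6% of all genes tested), and the list had a summed level of 1039.6 and 717 TPM in Qk_KO libraries, against 587 and 445 TPM in control libraries. The order of these 4 sums was that of Actl6a, which was highest in Qk_KO replicate 1 and lowest in control replicate 2. The part of cycling cells in the level of Actl6a was not tested. Against the same shares of all genes, astrocyte markers had 1 of 9 called higher (Aqp4) and 0 lower. Their sums were 573 and 477 TPM in Qk_KO and 453 and 473 TPM in control libraries. Of the 9, 2 lay higher and 3 lower in Qk_KO without overlap (33.6% and 27.5% of all genes tested). Oligodendrocyte lineage markers had 0 of 9 called higher and 1 lower (Pdgfra), and Mog was at 0 in all. Without overlap, 5 of the 9 lay lower in Qk_KO (27.5% of all genes tested) and 0 higher, and the median log2 fold change was -0.64. The list summed to 984 and 1208 TPM in Qk_KO and 1278 and 1099.6 TPM in control libraries. Most of each sum came from Olig1 and Olig2, named after their values were seen. Their means were 519 and 435 TPM in Qk_KO and 477 and 458 TPM in control cells. Neural stem cell and radial glia markers had 1 of 11 called higher (Pax6) and 1 lower (Slc1a3). Microglia and macrophage markers, 6 of 11 tested and all 6 lower in both Qk_KO libraries than in either control library (27.5% of all genes tested), summed to 22.6 and 17.1 TPM in Qk_KO and 45.8 and 39.4 TPM in control libraries, and endothelial markers to 7.17 and 6.01 TPM in Qk_KO and 5.44 and 6.42 TPM in control libraries. Pericyte and fibroblast markers summed to 3515 and 1633 TPM in Qk_KO and 1329.95 and 1163 TPM in control libraries, of which Acta2 gave 3484 and 1604 TPM in Qk_KO and 1289 and 1129.5 TPM in control libraries. No gene of these last 3 lists passed.

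The remaining BAF subunits, outside the members described above, were examined next. None of the 15 passed the threshold in limma, where 3.24% of all genes tested did. An unadjusted p under 0.05 was found for 6 of them and for 3760 of the 13260 genes tested, and no other tool was run. Their median log2 fold change was 0.26 beside 0.04 over all genes tested. Of the 15, 13 had a positive log2 fold change, and for 10 both Qk_KO values lay above both control values, where the share over all genes was 33.6%. Smarcb1, a core subunit, stood at 404 and 420.3 TPM in Qk_KO libraries, against 348 and 339.8 TPM in control libraries (adjusted p = 0.127 in limma). The ATPase gene Smarca4 (Brg1), named after its values were seen, stood at 265 and 291 TPM in Qk_KO libraries, against 245 and 232 TPM in control libraries (adjusted p = 0.203). Actb, the actin that forms a pair with the Actl6 proteins within the complex and is also the main cytoskeletal actin, stood at 3532 and 3735 TPM in Qk_KO libraries, against 4300.1 and 4894 TPM in control libraries (adjusted p = 0.132).

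Subunits specific to the sister complexes PBAF and ncBAF did not pass either, with 0 of 6 called by limma (3.24% of all genes tested). At an unadjusted p under 0.05 there was 1 of 6 (3760 of the 13260 genes tested), and the median log2 fold change was 0.18. Of the 6, 5 had a positive log2 fold change. For 4 both Qk_KO values lay above both control values (33.6% of all genes tested), and for 0 below. Brd7, of PBAF, stood at 109 and 111 TPM in Qk_KO libraries, against 109 and 113 TPM in control libraries. Brd9, of ncBAF, stood at 67.9 and 78.1 TPM in Qk_KO libraries, against 74.9 and 69.8 TPM in control libraries. Both overlapped between the groups.

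**Figure D4:**
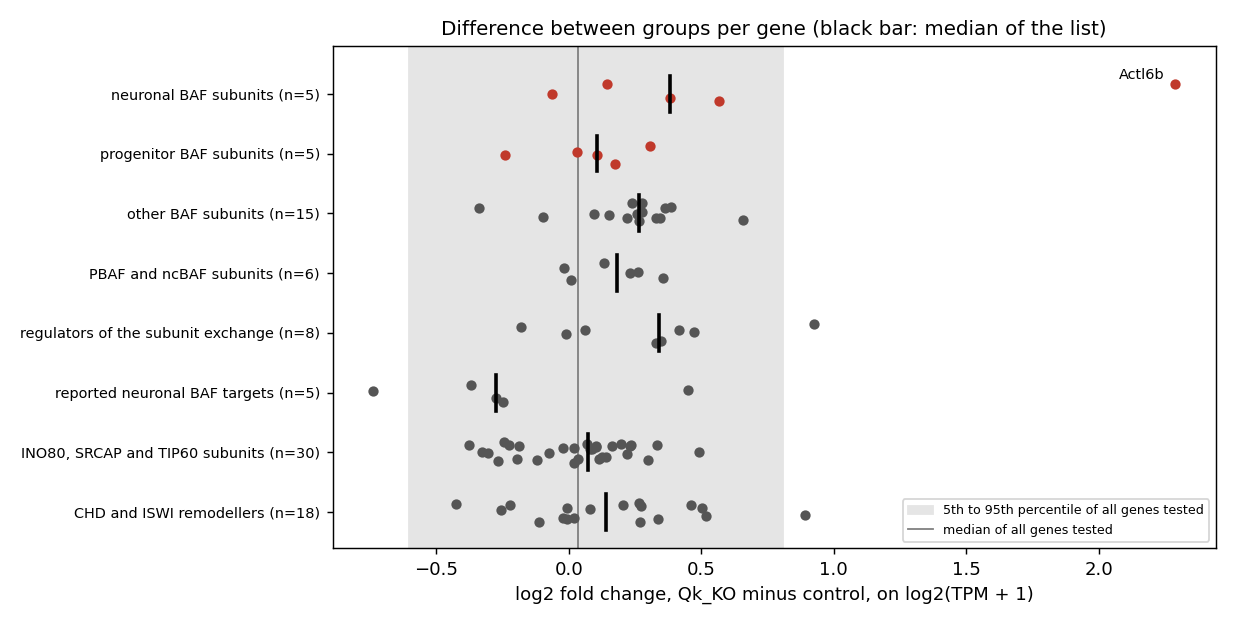
Log2 fold change (Qk_KO minus control, on log2(TPM + 1)) of each tested gene in the lists of subunits, regulators, targets and other remodellers, with a black bar at each list's median. The grey band spans the 5th to 95th percentile of all genes tested, from -0.60 to 0.81, and Actl6b at 2.29 lies farthest outside it.

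Among genes that regulate the subunit exchange, 0 of the 8 tested passed in limma (3.24% of all genes tested). An unadjusted p under 0.05 was found for 2 of the 8 (3760 of the 13260 genes tested), and the list's median log2 fold change was 0.34. Rest, the repressor itself, stood at 7.67 and 7.15 TPM in Qk_KO libraries, against 7.08 and 7.01 TPM in control libraries (log2 fold change 0.06, SE 0.15; adjusted p = 0.805 in limma). Its values were named after they were seen. Ptbp1, a splicing repressor of progenitors that is itself a target of miR-124, stood at 249 and 186 TPM in Qk_KO libraries, against 175 and 162 TPM in control libraries (adjusted p = 0.209). Mir9-3hg differed by 0.92 ± 0.23 on the log2 scale (SE; adjusted p = 0.0761 in limma). The miR-124 host transcripts Mir124a-1hg and Mir124-2hg had log2 fold changes of 0.47 and 0.42, and C130071C03Rik one of -0.01. Mir124-2hg and C130071C03Rik overlapped between the groups. All of these were named after their values were seen. The other 6 entries, all microRNA hairpins, were listed at 0 in every library.

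Genes reported as targets of neuronal BAF in neurons were Gap43, Stmn2, Ngef, Rap1a and Fos, most of them linked to the outgrowth of axons and dendrites. None of these 5 passed in limma, where 3.24% of all genes tested did. At an unadjusted p under 0.05 there were 2 of the 5 (3760 of the 13260 genes tested). Only 1 of the 5 log2 fold changes was positive, and their median was -0.28. Gap43 stood at 305 and 421 TPM in Qk_KO libraries, against 267 and 258 TPM in control libraries (adjusted p = 0.148 in limma). Rap1a stood at 31.2 and 30.0 TPM in Qk_KO libraries, against 34.2 and 40.5 TPM in control libraries (adjusted p = 0.213). Ngef (ephexin), named after its values were seen, stood at 1.38 and 2.23 TPM in Qk_KO libraries, against 3.37 and 3.90 TPM in control libraries (adjusted p = 0.117). Gap43 was above the control range in both Qk_KO libraries, and Rap1a and Ngef were below it. Over all genes tested, 33.6% lay higher and 27.5% lower in Qk_KO without overlap, so nothing is read from this.

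Other families of remodellers served as a comparison. The INO80, SRCAP and TIP60 complexes, some of which contain Actl6a, had 0 of 30 subunits called by limma (3.24% of all genes tested). Of the 30, 3 had an unadjusted p under 0.05, as did 3760 of the 13260 genes tested. Their median log2 fold change, over the 30 subunits, was 0.07. Morf4l2 stood at 675 and 649.5 TPM in Qk_KO libraries, against 567 and 670.2 TPM in control libraries, and Morf4l1 at 324 and 333 TPM in Qk_KO libraries, against 303 and 308 TPM in control libraries. The CHD and ISWI remodellers had 0 of 18 called (5 at an unadjusted p under 0.05) and a median of 0.14. Chd4, the main ATPase of the NuRD complex, stood at 203 and 202 TPM in Qk_KO libraries, against 199 and 185 TPM in control libraries, and Baz1b at 73.4 and 66.5 TPM in Qk_KO libraries, against 57.9 and 57.7 TPM in control libraries. Chd5, the neuronal NuRD ATPase that alternates with Chd3 and Chd4, was named after its values were seen. It stood at 10.5 and 12.1 TPM in Qk_KO libraries, against 6.13 and 5.18 TPM in control libraries, which gave a log2 fold change of 0.89 ± 0.16 (SE) and an adjusted p of 0.0513 in limma.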

How the data were processed

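The authors deposited TPM per gene, a level per transcript length as a share of all transcripts, in 1 table per library. STAR 2.4.1d, RSEM 1.3.0 and the builds mm10 and GRCm38.p4 are named in the submitters' processing notes, and the labels' protocols name poly(A) RNA and the Ion Proton platform. For the annotation, read filters, strand setting and depth the sources used here name nothing. Every table sums to between 999999 and 1000001, so each value depends on those of all other genes.

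Values were taken as log2(TPM + 1), a pseudocount of 1. Genes averaging 1 TPM or more (13260 genes) entered limma 3.58.1 (trend, two-sided, Benjamini-Hochberg, threshold 0.05) in R 4.3.3, tested on simulated data. With 2 libraries per group significance depends on the spread that limma shares between genes. Shares were taken from TPM in each library.

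The members and gene lists were chosen with earlier results of these data known, and most genes outside the naming rule are marked as such. Acta2, the miR-9 hairpins and the neuron markers below the filter were outside it too. Named were all members, Qk, the called genes of each list (or the 2 most abundant where none was called) and the 3 genes nearest to Actl6b. Marker lists covered neurons, neural stem cells, astrocytes, oligodendrocytes, microglia, endothelium, pericytes with fibroblasts, muscle and cycling cells. All 203 list entries were matched, 7 of them through an older name. Promoters and microRNAs came from RefSeq, where 9 of the 10 members had a promoter entry. Positions and 3' UTRs came from GENCODE M21. Plots used Python 3.11.15 with matplotlib 3.10.9.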

Additional observations from a re-analysis of the deposited data

How the results depend on the processing

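The log2 fold change of Actl6b lay between 1.75 and 2.83 in the fits without 1 library, and its share of the pair differed by 21.3 to 30.3 percentage points. Shifts of the other shares between groups stayed at or below 4.23 points, and that of the BAF45 set was -0.05 without Qk_KO replicate 2. The number of genes called over all genes, 430, was 130 with no filter on low values, 649 at a mean of at least 5 TPM, 41 without limma's trend, 1278 with the replicate number as a block, 1 to 92 without 1 library (with Qk_KO replicate 1 left out 12, with Qk_KO replicate 2 left out 92, with control replicate 1 left out 7 and with control replicate 2 left out 1, the lone sample being assumed to vary like the other group) and, as alternatives chosen after seeing the data, 796 with small RNA genes left out and 0 with no filter and genes at 0 throughout left out (4327 at an unadjusted p under 0.05). The cause of these shifts was not tested. Under the replicate block 1 regulator, Mir9-3hg, and 1 CHD gene, Chd5, passed. Chd5 was also the 1 gene of its list that passed with a pseudocount of 0.1, at a mean of at least 5 TPM and with small RNA genes left out. The replicates share only a number (r of same-number deviations 0.114 across genes), so the block is no paired design. TPM gives no depth, so the precision of low members is unknown.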
